A study of Mus musculus with 12 samples.

Results

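The comparison set 3 expression arrays of bone marrow derived mast cells from ACKR2-/- mice against 3 arrays of the same cells from C57BL/6 wild type mice, all after 10 weeks of culture. The members were the 6 arrays of a 12-array series whose titles name 10 weeks, and the other 6 arrays were cultures of 2 weeks. The titles call the deficient genotype D6KO, D6 being an older name of ACKR2, and all samples carry the strain label C57BL/6. Per the labels' protocols, marrow came from female mice aged 4 to 6 weeks and was kept in interleukin 3 at 10 ng/ml and stem cell factor at 12.5 ng/ml. The 3 samples of a group are labelled biological replicates, with no animal or culture named, so the tests measure only the spread between these samples, which may be technical. The part of Ackr2 that was deleted, and how the null mice were made, are not stated in the labels.

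ACKR2 is an atypical chemokine receptor: it binds inflammatory CC chemokines and carries them into the cell for degradation without the usual G protein signalling. Mast cells are tissue cells of the myeloid lineage that store histamine and proteases in granules and release them when IgE on their Fc receptors meets antigen. Marrow cultures with stem cell factor and interleukin 3 yield mast cells over several weeks, and early cultures also hold basophils, neutrophils, monocytes and macrophages.

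Values are log2 signals, so a difference of 1 is a doubling. For each of 19938 genes the difference is the mean of the ACKR2-deficient arrays minus the mean of the wild type arrays (n = 3 each), with its standard error from limma. Beside this fit, genes were sorted by range. In the first class all 3 ACKR2-deficient arrays lay beyond all 3 wild type arrays. In the second, ACKR2-deficient array 1 lay inside the wild type range while arrays 2 and 3 both lay beyond the same end of it. These classes describe the 6 arrays and are no test. The gap of a gene is the distance between the nearest values of the arrays set apart. No detection calls were used, so a low signal cannot be told from background.

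Ackr2 itself read 7.88, 8.26 and 8.35 on wild type arrays 1, 2 and 3, and 8.35, 8.16 and 8.25 on ACKR2-deficient arrays 1, 2 and 3. The groups overlapped, and the difference was 0.08 ± 0.15 (SE; limma adjusted p = 0.932). Its direction turned to -0.06 without wild type array 1, and whether its probe set lies in the deleted part is not known, so it does not check the genotype.

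Of the defining mast cell transcripts, Kit, Fcer1a and Cpa3 were high on all 6 arrays. Kit, the stem cell factor receptor, read 13.72, 13.61 and 13.73 in wild type cells and 13.89, 13.78 and 13.82 in ACKR2-deficient cells. Fcer1a, which encodes the IgE-binding chain of the Fc receptor, read 13.87, 13.74 and 13.93 against 14.02, 14.09 and 14.14. Cpa3, mast cell carboxypeptidase, read 14.14, 13.86 and 13.63 against 14.28, 14.22 and 14.27. All 3 genes were slightly higher on every ACKR2-deficient array, by 0.14 ± 0.11, 0.24 ± 0.11 and 0.38 ± 0.15, with limma adjusted p of 0.745, 0.528 and 0.443. These 3 transcripts were thus high on all 6 arrays, which carry a mast cell label. Hdc, another defining mast cell gene, read 10.30 and 9.23 on ACKR2-deficient arrays 2 and 3, below all other arrays. Genes of macrophages and MHC class II, given below, were also high on some arrays.

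No gene passed an adjusted p of 0.05. Over the 19938 genes limma made 0 calls (0%), and the smallest adjusted p was 0.378. At the same time, 2098 genes had an unadjusted p under 0.05, 962 lower and 1136 higher on the ACKR2-deficient arrays. The median difference over all genes was 0.00761. A difference of at least 1 was far more often towards lower signal, in 349 genes against 62. By range, 1192 genes (5.98%) were lower and 1714 (8.60%) higher on all 3 ACKR2-deficient arrays. A further 1157 (5.80%) were lower and 1383 (6.94%) higher on arrays 2 and 3 with array 1 inside the wild type range. After each array was centred on its median, which moved the median difference to 0.089, the first class held 683 lower and 2577 higher genes. The share of lower genes in that class thus depends on the scaling.

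ACKR2-deficient array 1 was the array that most often stood with the wild type. With array 2 as the array inside the wild type range, the count was 330 lower and 269 higher genes, and with array 3 it was 321 and 448. None of those genes had a gap of 1 or more, against 138 lower and 21 higher genes for array 1. Among genes with all 3 arrays beyond the wild type, 6 lower and 1 higher gene had a gap of 1 or more. The widest gap was 5.65 in the class with array 1 inside the wild type range and 1.65 in the class with all 3 arrays beyond it. Wide gaps were therefore found mostly on arrays 2 and 3. The counts also depended on single arrays: all remaining ACKR2-deficient arrays lay beyond the wild type in 4418 lower and 4206 higher genes without wild type array 1, in 2106 and 3142 without wild type array 3, and in 2692 and 3366 without ACKR2-deficient array 1.

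**Figure D1:**
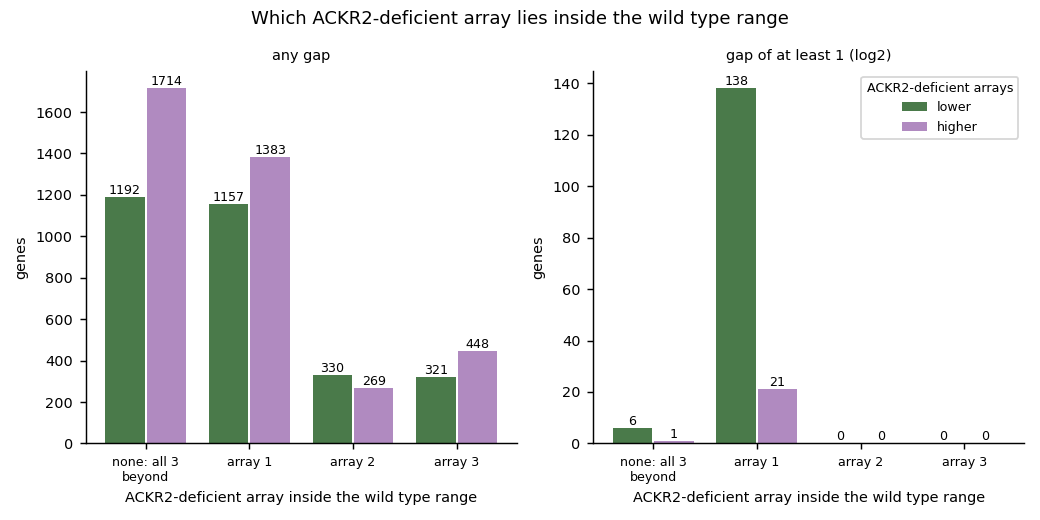
Bars give the number of genes (y axis, starting at 0) by which ACKR2-deficient array lay inside the range of the 3 wild type arrays, lower and higher genes apart, for any gap on the left and for gaps of at least 1 log2 unit on the right. Array 1 gave 138 lower genes with a gap of at least 1, arrays 2 and 3 gave 0, and 6 lower genes had all 3 arrays beyond the wild type.

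Where array 1 stood can also be read gene by gene. In 558 genes the mean of arrays 2 and 3 was at least 1 below the wild type mean. On a scale from 0 at the wild type mean to 1 at the mean of arrays 2 and 3, array 1 had a median position of 0.131 in these genes. It stood at 0.25 or less in 355 of them, at 0.75 or more in 32, and between in 171. For the 135 genes at least 1 higher, the median position was 0.137 and the counts were 83, 12 and 40. Array 2, placed the same way against arrays 1 and 3, stood at 0.75 or more in 249 of 251 lower genes, and array 3 in 246 of 270. Over all genes, array 1 correlated with wild type arrays 1, 2 and 3 at Pearson r = 0.979, 0.985 and 0.989. With its own group it correlated at 0.974 and 0.975, while ACKR2-deficient arrays 2 and 3 correlated at 0.994. Wild type array 1 correlated with wild type arrays 2 and 3 at 0.981 and 0.970. With ACKR2-deficient arrays 2 and 3 it correlated at 0.970 and 0.972, so the wild type arrays were not a tight group. These correlations run across genes, which are not independent replicates, and are given as a description.

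A further set of genes had array 1 beyond the other end of the wild type range. It held 343 genes (1.72%) with arrays 2 and 3 lower and 269 (1.35%) with both higher, of which 43 and 4 had a gap of at least 1. The widest gaps were in Akr1c18, a steroid-reducing enzyme, and Rnase2a, a ribonuclease of the eosinophil-associated family, both picked after their values were seen. Akr1c18 read 12.54, 12.64 and 12.32 on the wild type arrays, 12.88 on ACKR2-deficient array 1 and 6.27 and 5.81 on arrays 2 and 3. Rnase2a read 11.85, 11.85 and 11.71 against 11.96, 5.68 and 5.42. Both were at wild type level or slightly above it on array 1 and far lower on arrays 2 and 3. Members of the Rnase2 family are near-identical and can share probes.

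Among genes lower on all 3 ACKR2-deficient arrays, the 10 with the widest gap were Ccl24, Clec4n, Ms4a4a, Prg2, Ms4a6c, Prss34, Cxcl2, Nfil3, Lcn2 and Clec4a1. Ccl24, a CC chemokine that attracts eosinophils and that ACKR2 is reported to bind, had the widest gap. It read 11.17, 9.84 and 9.92 in wild type cells and 8.19, 7.37 and 7.28 in ACKR2-deficient cells, which differ by -2.69 ± 0.39 (limma adjusted p = 0.378). Every ACKR2-deficient array lay at least 1.65 below the lowest wild type array. Array 1 was the highest of the 3 but was nearer to its own group than to the wild type.

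Clec4n, the C-type lectin Dectin-2 of myeloid cells, read 8.65, 9.58 and 8.67 in wild type cells and 7.46, 6.21 and 6.25 in ACKR2-deficient cells, a difference of -2.32 ± 0.39. Clec4a1, another lectin of the same gene cluster, read 8.35, 9.50 and 8.38 against 7.60, 6.04 and 5.90, with -2.23 ± 0.50. Both lectins put array 1 between the wild type and the other ACKR2-deficient arrays. Prg2, the eosinophil granule major basic protein, read 9.85, 10.08 and 7.81 against 6.77, 6.42 and 6.47, with -2.69 ± 0.54. Cxcl2, a chemokine that attracts neutrophils, read 8.27, 9.55 and 7.30 against 6.30, 6.35 and 6.08, with -2.13 ± 0.49. In Prg2 and Cxcl2 array 1 was level with arrays 2 and 3, and wild type array 3 was the lowest of its group.

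Nfil3, a basic leucine zipper transcription factor, read 10.56, 11.05 and 10.60 in wild type cells and 9.69, 8.83 and 8.27 in ACKR2-deficient cells, a difference of -1.81 ± 0.34. Lcn2, which sequesters bacterial iron carriers and is stored by neutrophils, read 10.38, 11.45 and 9.98 against 9.20, 6.89 and 6.91, with -2.93 ± 0.66. Tlr1, a Toll-like receptor for bacterial lipopeptides and, with small RNAs left aside, the gene with the lowest p, read 7.63, 7.56 and 7.50 against 6.82, 6.62 and 6.82, with -0.81 ± 0.12. The limma adjusted p of all these genes was 0.378. Tlr1 was even within both groups, whereas Lcn2 had array 1 more than 2 log2 units above arrays 2 and 3.

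The Ms4a family encodes membrane proteins with 4 transmembrane passes, and its members mark different blood cells. Of 19 measured members, 5 were lower and 1 higher on all 3 ACKR2-deficient arrays, beside 5.98% and 8.60% of all genes. The median was -0.10 over the family, which was chosen after values were seen. The lower count was 8 without wild type array 1, beside 22.2% of all genes. Over members with a mean of at least 6 the median was -1.37. Ms4a4a read 7.79, 8.87 and 7.52 in wild type cells and 6.43, 5.83 and 5.85 in ACKR2-deficient cells (-2.02 ± 0.35). Ms4a6c, of monocytes and macrophages, read 9.19, 10.92 and 9.31 against 8.16, 5.57 and 5.50 (-3.39 ± 0.77). Ms4a2, the IgE receptor beta chain, was the higher member, at 12.78, 12.80 and 12.80 against 13.04, 13.21 and 13.25 (0.37 ± 0.11, limma adjusted p = 0.398). The member that belongs to mast cells thus stood on the opposite side from the monocyte members.

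Genes higher on all 3 ACKR2-deficient arrays had smaller gaps. Syn2, a synaptic vesicle protein, read 7.70, 8.63 and 9.10 in wild type cells and 10.11, 10.87 and 10.20 in ACKR2-deficient cells, a difference of 1.91 ± 0.36 and the only gap of 1. Bmpr1a, a type I receptor for bone morphogenetic proteins, read 8.29, 8.04 and 8.20 against 9.01, 9.52 and 9.27, with 1.09 ± 0.16. Tnfsf10, the death ligand TRAIL, read 9.57, 8.92 and 9.73 against 10.31, 10.70 and 10.34, with 1.04 ± 0.23. In all 3 genes array 1 was close to arrays 2 and 3, not to the wild type.

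Mmp27, a matrix metalloproteinase, read 9.68, 10.43 and 10.38 in wild type cells and 11.17, 11.66 and 11.08 in ACKR2-deficient cells (1.14 ± 0.24). Tasor, a subunit of the HUSH complex that silences genes through chromatin, read 9.90, 9.55 and 9.79 against 10.53, 10.58 and 10.60 (0.82 ± 0.13). Ptpn22, a phosphatase that restrains antigen receptor signalling, read 7.82, 8.01 and 8.13 against 8.68, 8.73 and 8.76 (0.74 ± 0.12). Tasor and Ptpn22 were nearly equal on the 3 ACKR2-deficient arrays. The other genes of the 10 widest gaps were Rbbp9 (0.86 ± 0.13), Ssbp2, a single-stranded DNA-binding protein (0.84 ± 0.13), Pisd-ps2 (0.74 ± 0.12) and the zinc finger gene Zfp759 (1.20 ± 0.25). The limma adjusted p was 0.378 for each of the 10.

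**Figure D2:**
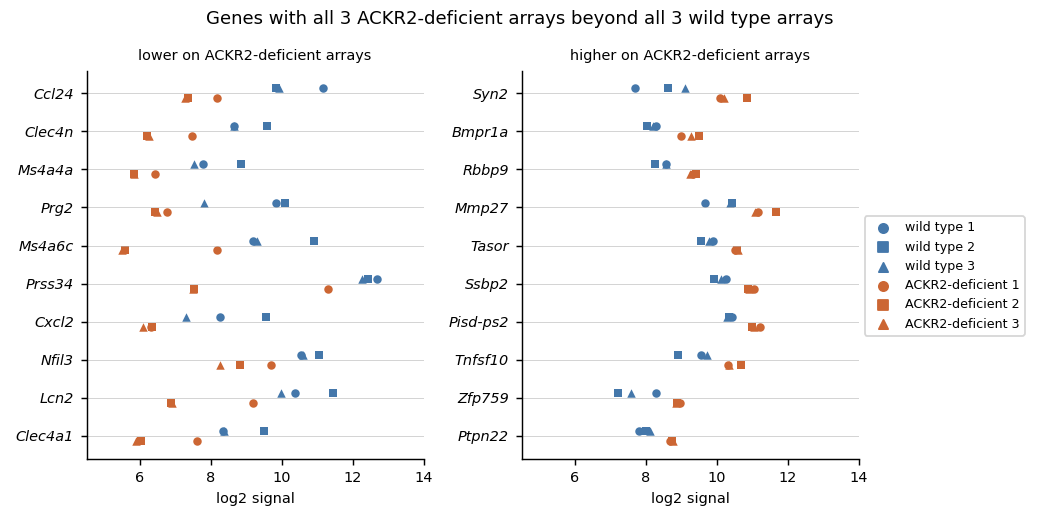
Each point is the log2 signal (x axis) of a gene on 1 array for the 10 lower and 10 higher genes with the widest gap between groups, wild type in blue and ACKR2-deficient in orange, with the marker giving the replicate. The groups do not overlap by construction; Ccl24 has the widest gap, 1.65, and among lower genes such as Prss34 array 1 (circle) lies above arrays 2 and 3.

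Among lower genes with array 1 inside the wild type range, the 8 with the widest gap were Wfdc17, Chil3, H2-Aa, H2-Ab1, Gpnmb, Klk1b11, Mmp12 and Cd81. Wfdc17, a small secreted protein of macrophages, read 11.36, 12.96 and 12.33 on the wild type arrays, 12.42 on ACKR2-deficient array 1 and 5.35 and 5.71 on arrays 2 and 3. Chil3, the chitinase-like protein Ym1 of macrophages and neutrophils, read 10.86, 12.61 and 11.05 against 11.69, 5.56 and 5.23. Array 1 was in the middle of the wild type values in both. The differences of the means, -4.39 ± 1.72 and -4.01 ± 1.59, carry standard errors over 10 times the 0.154 that was the median over all genes, and the limma adjusted p was 0.439 and 0.442.

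Gpnmb, a transmembrane glycoprotein of macrophages, read 10.53, 12.08 and 11.33 in wild type cells and 11.51, 6.64 and 6.57 in ACKR2-deficient cells (-3.07 ± 1.25). Mmp12, macrophage elastase, read 10.82, 11.64 and 10.56 against 10.94, 6.48 and 6.78 (-2.94 ± 1.08). Cd81, a tetraspanin of the cell surface, read 12.70, 12.16 and 11.79 against 12.27, 7.75 and 8.23 (-2.80 ± 1.07). Klk1b11, a kallikrein-type protease whose close relatives can share probes, read 9.71, 11.85 and 10.53 against 11.38, 5.85 and 5.13 (-3.24 ± 1.52). All 4 genes had 4 arrays high and ACKR2-deficient arrays 2 and 3 low, an order that the class fixes by construction.

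The reverse order, with arrays 2 and 3 high, had a gap of at least 1 in 21 genes. Gulp1, an adaptor for the uptake of dying cells, read 5.66, 6.32 and 5.43 in wild type cells and 6.22, 9.27 and 9.0 in ACKR2-deficient cells (2.36 ± 0.75). Rgs13, a regulator of G protein signalling that restrains mast cell and B cell responses, read 7.61, 5.62 and 5.21 against 5.32, 10.29 and 10.24 (2.47 ± 1.33). Nox4, an NADPH oxidase, read 5.68, 5.64 and 5.93 against 5.87, 8.17 and 8.72 (1.84 ± 0.65). By construction of the class, only arrays 2 and 3 lay above the wild type range. Cd209c, a C-type lectin (1.69 ± 0.72), Cd59a, an inhibitor of complement lysis (2.33 ± 0.72), and Avil, an actin-binding protein (1.59 ± 0.60), had the same order.

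**Figure D3:**
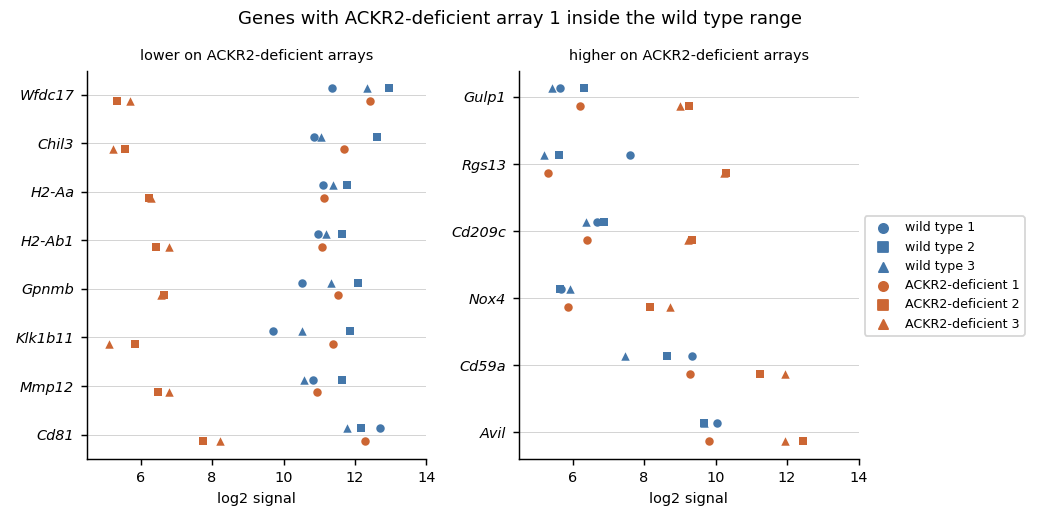
Each point is the log2 signal (x axis) of a gene on 1 array for the 8 lower and 6 higher genes with the widest gap among those with ACKR2-deficient array 1 inside the wild type range. Array 1 (orange circle) lies among the blue wild type points by construction, while arrays 2 and 3 lie together, at 5.35 and 5.71 for Wfdc17 and at 9.27 and 9.0 for Gulp1.

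The border between the classes was thin. Cd74, the invariant chain of MHC class II, read 11.68, 12.06 and 11.65 in wild type cells and 11.58, 6.70 and 6.84 in ACKR2-deficient cells. It belonged to the first class by a gap of 0.08. H2-Aa, an MHC class II alpha chain, read 11.11, 11.77 and 11.39 against 11.12, 6.23 and 6.31 and missed that class by 0.01. Their profiles over the 6 arrays were alike, so class membership alone does not say how far array 1 lay from the wild type.

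When ACKR2-deficient array 1 was left out, limma called 507 genes, 407 lower and 100 higher. Of the lower genes 141 came from the class with all 3 arrays beyond the wild type, 202 from the class with array 1 inside its range and 64 from neither, and of the higher genes 44, 43 and 13. Because the array left out was the one nearest to the wild type, these calls are no independent support. When wild type array 3 was left out, limma called 9 genes, all lower. They were Ngp, Ltf and Ms4a3 of neutrophils and their precursors, Prg2 and Prg3 of eosinophil granules, Clec4b2, Ms4a4c, Ly6a2 and Csrnp1.

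In these 9 genes wild type array 3 stood nearer to the ACKR2-deficient arrays than to wild type arrays 1 and 2. In Prg2 it still lay 1.05 above the highest ACKR2-deficient array. Ngp, a neutrophil granule protein, read 10.65 and 10.80 on wild type arrays 1 and 2, 6.49 on wild type array 3 and 6.16, 6.57 and 6.21 on the ACKR2-deficient arrays. Ms4a3, of granulocyte precursors, read 9.88, 9.63 and 7.18 against 7.04, 6.97 and 7.21. Csrnp1, a nuclear protein of the immediate early response, read 11.88, 11.88 and 9.76 against 9.63, 9.73 and 10.02. Over all genes, 622 (3.12%) had wild type array 3 inside the ACKR2-deficient range with wild type arrays 1 and 2 above it, and 727 (3.65%) had the reverse, a count made after the values were seen. With wild type array 1 as the array inside the ACKR2-deficient range the counts were larger, 1169 (5.86%) and 1491 (7.48%), and with wild type array 2 they were 271 and 192. Gaps of at least 1 numbered 7 lower and 5 higher for wild type array 1 and 11 and 2 for wild type array 3. The widest was 4.08, in Ngp. No single division of the 6 arrays therefore described all genes that were low on the ACKR2-deficient side.

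Lists of genes by cell type and function, 418 measured genes in 26 lists, were described by their class counts and medians. Over all genes, the difference was below 0 in 9651 of 19938, and 5.98% were lower and 8.60% higher on all 3 ACKR2-deficient arrays. Leaving out 1 array raised these shares for genes at large. They were 22.2% and 21.1% without wild type array 1 and 10.6% and 15.8% without wild type array 3. Without ACKR2-deficient array 1 they were 13.5% and 16.9%. Markers of basophils, neutrophils, eosinophils, monocytes and macrophages had medians from -2.48 to -1.06, while mast cell receptors and identity genes had a median of 0.05. In RNA from a whole culture, fewer cells of a type and less RNA per cell cannot be told apart. How far other cell types contribute to any gene named here was not tested.

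**Figure D4:**
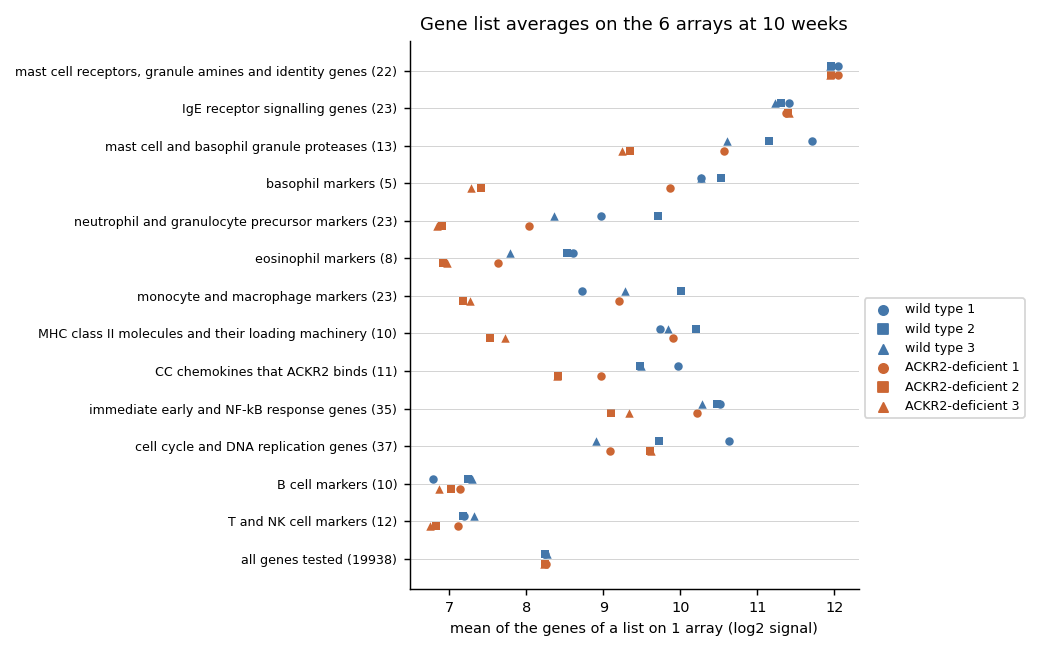
Each point is the mean log2 signal (x axis) of the genes of a list on 1 array, with the number of measured genes in brackets and all 19938 genes in the last line. Mast cell identity genes lie close together over the 6 arrays, from 11.94 to 12.05, monocyte and macrophage markers put ACKR2-deficient array 1 (9.20) inside the wild type range of 8.72 to 10.01, and neutrophil markers put all 3 ACKR2-deficient arrays below it.

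Of 22 mast cell receptor, amine and identity genes, 8 were higher and none lower on all 3 ACKR2-deficient arrays, beside 8.60% and 5.98% of all genes. Among all genes with a mean signal of 12 or more the higher share was 15.5%. Without ACKR2-deficient array 1, 11 were higher and 4 lower, beside 16.9% and 13.5% of all genes. The list averaged 12.04, 11.95 and 11.95 in wild type cells and 12.05, 11.95 and 11.94 in ACKR2-deficient cells. Mitf, a master transcription factor of the mast cell and pigment cell lineages, read 10.92, 10.67 and 10.66 against 11.13, 11.09 and 11.07 (0.35 ± 0.12). Hpgds, which makes prostaglandin D2, read 10.85, 10.62 and 10.58 against 10.97, 11.18 and 11.13 (0.41 ± 0.13), and Slc18a2, which loads histamine and serotonin into granules, differed by 0.21 ± 0.12. These 3 genes, like Kit, Fcer1a, Ms4a2 and Cpa3, were higher without overlap, by small amounts.

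The amine genes did not share 1 direction. Hdc, the enzyme that makes histamine, read 12.07, 11.86 and 11.73 in wild type cells and 11.78, 10.30 and 9.23 in ACKR2-deficient cells (-1.45 ± 0.55, limma adjusted p = 0.434). Slc6a4, the serotonin transporter, read 9.19, 9.69 and 9.03 against 9.11, 8.46 and 8.22 (-0.71 ± 0.26). Tph1, which starts serotonin synthesis, read 13.63, 13.50 and 13.36 against 13.52, 13.82 and 13.85. In Hdc and Slc6a4 array 1 was at wild type level, and Tph1 was slightly higher on arrays 2 and 3.

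Genes of IgE receptor signalling had a median of 0.13. On all 3 ACKR2-deficient arrays 6 of 23 (26.1%) were higher and none lower, beside 8.60% and 5.98% of all genes. The list averaged from 11.22 to 11.41 on the 6 arrays. Among all genes with a mean signal from 11 to 12 the higher share was 17.9%. After quantile normalization of the 6 arrays only 2 of the 23 (8.70%) were higher and 1 (4.35%) lower, beside 11.1% and 6.51% of all genes. Without wild type array 1, 12 (52.2%) were higher, beside 21.1%. Sos1, an activator of Ras, read 9.80, 9.47 and 9.22 in wild type cells and 9.82, 10.34 and 10.51 in ACKR2-deficient cells (0.73 ± 0.22). Fyn, a Src-family kinase of the pathway, read 9.92, 9.50 and 9.41 against 9.62, 8.51 and 8.92 (-0.60 ± 0.28). Syk, the kinase recruited to the receptor, differed by -0.14 ± 0.13, and Lat, an adaptor, by -0.12 ± 0.12. The members did not share 1 direction.

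Of 13 granule proteases measured, 5 were lower and 1 higher on all 3 ACKR2-deficient arrays, with a median of -1.05, beside 5.98% and 8.60% of all genes. The median was -0.60 without wild type array 1 and -0.64 and -0.62 without ACKR2-deficient arrays 2 and 3. Without ACKR2-deficient array 1 it was -1.46 with 8 lower, beside 13.5% of all genes. Mcpt8, a basophil protease, read 12.94, 13.24 and 12.51 in wild type cells and 11.81, 7.41 and 7.02 in ACKR2-deficient cells (-4.15 ± 1.14, limma adjusted p = 0.381). Prss34, of basophils and mast cells, read 12.68, 12.43 and 12.26 against 11.30, 7.52 and 7.51 (-3.68 ± 0.93). Ctsg, cathepsin G, read 12.18, 11.39 and 10.38 against 10.37, 6.58 and 6.17 (-3.61 ± 1.05). All 3 were over 3 log2 units lower on arrays 2 and 3 than on array 1.

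The chymases of mucosal and connective tissue mast cells varied within the wild type. Mcpt4 read 12.66, 11.21 and 9.05 in wild type cells and 8.66, 7.29 and 7.30 in ACKR2-deficient cells (-3.22 ± 0.84). Mcpt1 read 9.09, 6.91 and 5.91 against 5.82, 5.70 and 5.55, and Mcpt2 read 12.75, 10.63 and 8.61 against 8.72, 9.01 and 9.41. Wild type array 1 was the highest and wild type array 3 the lowest of its group in all 3 chymases. The tryptase Tpsb2 read 12.19, 12.02 and 12.04 against 12.29, 11.06 and 10.93, and the chymase Cma1 read 11.96, 11.07 and 11.28 against 11.37, 12.10 and 12.14. Proteases of this locus are close paralogs and can share probes.

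Basophil markers comprised 5 measured genes, of which 3 were lower on all 3 ACKR2-deficient arrays, beside 5.98% of all genes. Mcpt8 and Prss34, given above, were joined by Cebpa, a transcription factor of the granulocyte and basophil lineages, at 10.00, 10.50 and 10.19 against 9.71, 6.80 and 6.74 (-2.48 ± 0.73). The list averaged 10.26, 10.52 and 10.27 in wild type cells and 9.86, 7.41 and 7.28 in ACKR2-deficient cells. Array 1 was a little below the wild type and far above its own group. Without it all 5 markers were lower, beside 13.5% of all genes.

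Neutrophil and granulocyte precursor markers were below 0 in 23 of 23 cases, with a median of -1.92. On all 3 ACKR2-deficient arrays 9 were lower, and 5 were lower on arrays 2 and 3 only, beside 5.98% and 5.80% of all genes. The list averaged 8.97, 9.71 and 8.35 in wild type cells and 8.03, 6.90 and 6.84 in ACKR2-deficient cells, so the groups did not overlap. S100a8, a calcium-binding protein of neutrophils, read 9.65, 11.84 and 6.92 against 6.51, 6.60 and 5.96 (-3.11 ± 1.06). Elane, neutrophil elastase, read 9.18, 11.14 and 7.79 against 7.47, 7.10 and 7.04 (-2.17 ± 0.73). Cxcr2, the receptor for neutrophil-attracting chemokines, read 10.11, 9.96 and 9.26 against 9.43, 6.00 and 6.11 (-2.59 ± 0.85). Granule genes such as S100a8 were near the ACKR2-deficient level on wild type array 3, whereas Cxcr2 was at wild type level on ACKR2-deficient array 1. Left out one at a time, wild type array 1 gave 15 markers lower on all ACKR2-deficient arrays and ACKR2-deficient array 1 gave 14. Of all genes 22.2% and 13.5% were lower in the same settings.

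Of 8 eosinophil markers, 3 were lower on all 3 ACKR2-deficient arrays, with a median of -1.06, beside 5.98% of all genes. Only 1 was lower after median centring or quantile normalization. Without wild type array 1 or without ACKR2-deficient array 1, 5 were lower, beside 22.2% and 13.5% of all genes. Besides Prg2, the markers lower on all 3 arrays were Epx and Ear6. Epx, eosinophil peroxidase, read 9.17, 8.25 and 6.78 against 6.77, 6.49 and 6.52 (-1.47 ± 0.52). Ear6, an eosinophil-associated ribonuclease, differed by -0.77 ± 0.30. Epx on wild type array 3 and ACKR2-deficient array 1 differed by less than 0.01. Alox15, a lipoxygenase of eosinophils and macrophages, read 9.51, 10.09 and 10.01 against 9.60, 7.22 and 7.03 (-1.92 ± 0.63). Il5ra, the interleukin 5 receptor of eosinophils, read between 6.45 and 6.87 on all 6 arrays.

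Monocyte and macrophage markers gave the clearest case of array 1 with the wild type. Of 23 measured, 16 had array 1 inside the wild type range with arrays 2 and 3 below it, and 3 were lower on all 3 arrays. Of all genes 5.80% and 5.98% were in these classes. The median was -1.29. The list averaged 8.72, 10.01 and 9.28 in wild type cells and 9.20, 7.18 and 7.27 in ACKR2-deficient cells. Adgre1, the F4/80 antigen, read 10.35, 11.21 and 10.70 against 10.59, 7.60 and 6.85 (-2.40 ± 0.86). Csf1r, the receptor of macrophage growth factor, read 9.29, 10.84 and 10.02 against 9.56, 6.82 and 6.62 (-2.38 ± 0.77). Mrc1, the macrophage mannose receptor, read 9.53, 10.49 and 10.13 against 10.02, 6.12 and 6.06 (-2.65 ± 0.99).

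Some macrophage genes did not take part. Cx3cr1, the fractalkine receptor, read 11.23, 10.77 and 11.22 in wild type cells and 10.63, 11.24 and 11.09 in ACKR2-deficient cells. Ccr2, the monocyte receptor for CCL2, read 10.35, 12.81 and 11.36 against 13.22, 6.11 and 11.31, so arrays 2 and 3 stood apart from each other. Marco, a scavenger receptor, stayed between 7.10 and 7.59. Without wild type array 1, 13 of the 23 markers were lower on all ACKR2-deficient arrays, and without ACKR2-deficient array 1, 19 were. Of all genes 22.2% and 13.5% were lower in the same settings.

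Lists of lymphocyte and stromal markers had medians near 0. B cell markers had a median of -0.09 over 10 genes, T and NK cell markers -0.13 over 12, erythroid markers -0.05 over 6 and stromal markers -0.12 over 11. Nkg7, a granule membrane protein of killer cells, stood out at 10.23, 10.15 and 9.61 against 9.30, 7.51 and 7.14 (-2.02 ± 0.52), and so did Thy1, a surface glycoprotein, at 10.60, 9.17 and 8.87 against 8.19, 7.67 and 7.79 (-1.66 ± 0.42). Fn1, fibronectin, differed by -1.79 ± 1.57, at 7.98, 11.68 and 11.39 against 12.13, 6.80 and 6.74, so ACKR2-deficient array 1 was the highest of all and wild type array 1 was the lowest of its group. Of 11 dendritic cell markers, 3 (27.3%) were lower and 1 (9.09%) higher on all 3 ACKR2-deficient arrays (median -0.53), beside 5.98% and 8.60% of all genes. The lower count was 6 without ACKR2-deficient array 1 and 5 without wild type array 1 or 3, beside 13.5%, 22.2% and 10.6%. Clec10a, a galactose-type lectin, was among the lower, at 10.22, 9.73 and 9.59 against 9.11, 7.62 and 8.33. The higher marker was Siglech, at 6.94, 7.12 and 7.06 against 7.40, 7.23 and 7.38. The platelet chemokine Ppbp read 9.17, 12.53 and 9.78 against 9.53, 6.43 and 6.48 (-3.02 ± 1.07), with array 1 at wild type level. Itga2b, another megakaryocyte and platelet marker, was higher on all 3 ACKR2-deficient arrays, at 12.55, 12.53 and 12.63 against 12.66, 13.08 and 13.07 (0.37 ± 0.15).

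MHC class II molecules present peptides to CD4+ T cells and are made by macrophages, dendritic cells and B cells. The list held 10 measured genes of the class and its loading machinery (median -0.96). Of these, 5 had array 1 inside the wild type range with arrays 2 and 3 below, and 3 were lower on all 3 arrays. The shares of all genes were 5.80% and 5.98%. H2-Ab1, the partner chain of H2-Aa, read 10.95, 11.62 and 11.20 in wild type cells and 11.09, 6.44 and 6.79 in ACKR2-deficient cells (-3.15 ± 1.11). The differences of H2-Aa and Cd74 were -3.54 ± 1.20 and -3.42 ± 1.18, with limma adjusted p of 0.403 and 0.413. H2-Eb1, another beta chain, read 9.44, 9.74 and 9.61 against 9.56, 7.83 and 7.89 (-1.17 ± 0.43). Array 1 was at wild type level in each. Without wild type array 1, 7 of the 10 genes were lower on all ACKR2-deficient arrays, and 8 were without ACKR2-deficient array 1. Of all genes 22.2% and 13.5% were lower in the same settings.

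The regulator and accessory genes of the class were less even. Ciita, the transcriptional activator of MHC class II, read 7.83, 8.08 and 7.97 in wild type cells and 7.74, 7.22 and 7.22 in ACKR2-deficient cells (-0.57 ± 0.17). Ctss, the protease that trims the invariant chain, read 10.01, 11.90 and 11.17 against 11.08, 6.94 and 6.89 (-2.72 ± 1.10). H2-Oa read 9.59, 9.97 and 9.54 against 10.01, 9.74 and 10.03 and H2-Ob read 9.45, 9.15 and 8.98 against 10.11, 8.25 and 9.56. These last genes, which modulate peptide loading, did not follow H2-Aa and Cd74.

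Because H2-Aa, H2-Eb1 and the immediate early genes below had arrays 2 and 3 low together, the 150 bases before their starts are shown, from RefSeq on GRCm38.p6. Capitals mark the letters CTGATTGG, the Y box of MHC class II promoters, or TGACGT, the core of the cyclic AMP response element, searched on both strands as CCAATCAG and ACGTCA too. In H2-Aa the capitals TGACGTCA are overlapping matches of the response element core on both strands. The windows are H2-Aa at chr17:34287824-34287973 on the minus strand, H2-Eb1 at chr17:34305717-34305866 on the plus strand, Fos at chr12:85473740-85473889 on the plus strand and Atf3 at chr1:191183334-191183483 on the minus strand.
H2-Aa: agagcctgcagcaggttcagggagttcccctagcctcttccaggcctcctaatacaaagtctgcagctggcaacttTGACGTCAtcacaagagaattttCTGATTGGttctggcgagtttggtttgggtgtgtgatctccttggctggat
H2-Eb1: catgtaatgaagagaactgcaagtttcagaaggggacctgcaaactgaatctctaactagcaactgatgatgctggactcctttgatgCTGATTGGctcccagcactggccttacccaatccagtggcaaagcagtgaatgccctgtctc
Fos: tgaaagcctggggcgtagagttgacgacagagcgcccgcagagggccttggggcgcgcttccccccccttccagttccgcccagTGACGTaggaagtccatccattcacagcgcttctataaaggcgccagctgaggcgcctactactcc
Atf3: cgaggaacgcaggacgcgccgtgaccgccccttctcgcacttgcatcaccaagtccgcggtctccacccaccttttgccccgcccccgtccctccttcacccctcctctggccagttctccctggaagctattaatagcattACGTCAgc
Of 32851 promoter windows of this length in the table, 3.16% held CTGATTGG and 5.15% held TGACGT on either strand. CTGATTGG was found in 4 of 9 MHC class II list genes with a window (H2-Aa, H2-Eb1, H2-Eb2 and H2-Oa) and in 0 of 27 immediate early list genes. TGACGT was found in 1 of the 9, H2-Aa, and in 8 of the 27: Atf3, Dusp1, Dusp5, Egr2, Fos, Maff, Nr4a3 and Rel. These are counts of genes with any matching window, whereas the shares above are of single windows. By window, CTGATTGG was in 4 of 10 for MHC class II and 0 of 39 for immediate early genes. TGACGT was in 1 of 10 and 10 of 39. H2-Oa carried the Y box letters and did not differ like H2-Aa, and Rel and Nr4a3 carried the response element core without being lower on arrays 2 and 3 together. A match describes the letters only.

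Immediate early genes are induced within minutes of a stimulus and include transcription factors and feedback inhibitors of the NF-kB and MAP kinase pathways. Of 35 measured, 33 were below 0, with a median of -0.85. On all 3 ACKR2-deficient arrays 11 were lower, and 15 had array 1 inside the wild type range, beside 5.98% and 5.80% of all genes. Fos read 11.49, 11.63 and 12.43 in wild type cells and 12.23, 8.01 and 8.58 in ACKR2-deficient cells (-2.24 ± 1.00). Fosb, its relative, read 11.56, 11.25 and 11.83 against 11.98, 7.78 and 8.06 (-2.27 ± 1.01). Btg2, an antiproliferative early gene, read 11.83, 12.36 and 12.61 against 12.45, 8.70 and 9.95 (-1.90 ± 0.83). ACKR2-deficient array 1 was at wild type level in all 3 genes, and arrays 2 and 3 were low.

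Other members put array 1 below the wild type. Atf3, a stress-induced transcription factor, read 9.57, 10.13 and 9.57 in wild type cells and 9.17, 7.72 and 7.58 in ACKR2-deficient cells (-1.61 ± 0.41). Klf2, a transcription factor of leukocyte quiescence and trafficking, read 11.57, 11.82 and 11.25 against 10.78, 10.17 and 10.77 (-0.98 ± 0.22). Cd83, a surface marker of activated cells, read 8.42, 8.15 and 7.85 against 7.49, 7.02 and 7.12 (-0.93 ± 0.19). Klf2 and Cd83 were low on array 1 as well as on arrays 2 and 3. Myc read 12.20, 11.74 and 10.02 against 10.06, 11.99 and 12.03, so wild type array 3 and ACKR2-deficient array 1 were the low pair. Without ACKR2-deficient array 1, 29 of the 35 genes were lower on both others, and without wild type array 3, 18 were lower on all ACKR2-deficient arrays. Of all genes 13.5% and 10.6% were lower in the same settings.

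Among the 11 measured CC chemokines that ACKR2 is known to bind, 10 were below 0 (median -1.13). On all 3 ACKR2-deficient arrays 3 were lower, and 5 had array 1 inside the wild type range, beside 5.98% and 5.80% of all genes. Besides Ccl24, the first group held Ccl5, a chemokine for T cells and eosinophils, at 10.00, 10.08 and 9.10 against 9.05, 8.32 and 8.42 (-1.13 ± 0.30), and Ccl17, a chemokine for CCR4-bearing T cells. Ccl17 read 12.72, 9.60 and 8.56 against 8.32, 8.25 and 8.05 (-2.09 ± 0.92, limma adjusted p = 0.487). Its groups did not overlap, but most of the difference lay on wild type array 1. Ccl22, the other CCR4 ligand, read 9.49, 8.18 and 7.17 against 7.25, 7.11 and 7.07, with the same array high.

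Ccl3, an inflammatory chemokine that mast cells release on activation, read 12.90, 13.51 and 13.09 in wild type cells and 13.28, 11.22 and 10.08 in ACKR2-deficient cells (-1.64 ± 0.71). Ccl4, its neighbour in the genome and in function, read 8.92, 9.42 and 8.82 against 9.05, 8.30 and 7.31 (-0.84 ± 0.41). Ccl2, which attracts monocytes, read 13.32, 13.28 and 13.60 against 13.59, 12.95 and 13.24 (-0.14 ± 0.18). Ccl11, eotaxin, was low and even, from 6.69 to 7.20 on the 6 arrays (0.10 ± 0.16). Without ACKR2-deficient array 1, 8 of the 11 were lower on both others, and 5 were lower without ACKR2-deficient array 3. Of all genes 13.5% and 7.83% were lower in the same settings. The ligands thus did not share 1 pattern, and array 1 was at wild type level for Ccl2, Ccl3 and Ccl4 but not for Ccl5 and Ccl24.

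Of 21 other chemokines, 4 were lower and 2 higher on all 3 ACKR2-deficient arrays (median -0.19), beside 5.98% and 8.60% of all genes. The lower count was 7 without wild type array 1 and 10 without ACKR2-deficient array 1, beside 22.2% and 13.5% of all genes. Ccl9, a myeloid chemokine, read 11.32, 11.81 and 11.54 against 11.70, 9.24 and 8.01 (-1.91 ± 0.81), and Pf4, platelet factor 4, read 8.41, 11.71 and 9.93 against 10.20, 6.99 and 6.97 (-1.97 ± 1.06). Array 1 was at wild type level in both. Of 21 chemokine receptors, 3 (14.3%) were lower and 1 (4.76%) higher on all 3 arrays (median -0.22), beside 5.98% and 8.60% of all genes. The lower count was 8 without wild type array 1, 7 without ACKR2-deficient array 1 and 5 without wild type array 3. The shares of all genes that were lower in these settings were 22.2%, 13.5% and 10.6%. Without wild type array 2 the lower count of receptors was also 5, beside 1555 of all 19938 genes.

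Ackr1, another atypical receptor that binds both CC and CXC chemokines, was the higher receptor. It read 8.22, 7.83 and 8.56 in wild type cells and 8.61, 9.82 and 10.33 in ACKR2-deficient cells (1.38 ± 0.42, limma adjusted p = 0.396). Array 1 exceeded the highest wild type array by only 0.05. Cxcr4, the receptor for CXCL12, read 9.96, 10.27 and 9.59 against 9.31, 8.20 and 7.86 (-1.49 ± 0.36), and Ccr1 read 9.95, 9.65 and 9.25 against 9.04, 7.95 and 8.46 (-1.14 ± 0.29). Ackr3 and Ackr4, the remaining atypical receptors measured, differed by -0.10 ± 0.12 and 0.16 ± 0.15.

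Cytokines and growth factors had a median of -0.21 over 23 genes. On all 3 ACKR2-deficient arrays 2 (8.70%) were lower, near the 5.98% of all genes. The count was 6 (26.1%) without wild type array 1, 7 (30.4%) without wild type array 3 and 8 (34.8%) without ACKR2-deficient array 1. Of all genes 22.2%, 10.6% and 13.5% were lower in the same settings. The 2 genes lower on all 3 arrays were Osm, oncostatin M, and Il13, a type 2 cytokine. Osm read 12.32, 12.27 and 11.64 against 11.13, 10.79 and 10.44 (-1.29 ± 0.24, limma adjusted p = 0.378). Il13 read 9.88, 9.93 and 8.83 against 8.64, 8.44 and 8.69 (-0.96 ± 0.29). Both were lowest on wild type array 3 among the wild type. Il6 read 12.12, 11.97 and 10.86 against 10.96, 10.92 and 11.10, so wild type array 3 was the lowest of all 6 arrays. Tnf read 10.28, 9.42 and 8.37 against 7.92, 8.96 and 9.38, so the groups overlapped in part, with ACKR2-deficient array 1 the lowest.

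Among 29 integrin and surface protease genes, 5 were lower and 2 higher on all 3 ACKR2-deficient arrays, and 9 had array 1 inside the wild type range with arrays 2 and 3 lower (median -0.33), beside 5.98%, 8.60% and 5.80% of all genes. Lower on all remaining arrays were 10 without wild type array 1, 8 without wild type array 3 and 17 without ACKR2-deficient array 1. Of all genes 22.2%, 10.6% and 13.5% were lower in the same settings. Itgam, the CD11b chain of myeloid cells, read 9.39, 10.79 and 10.10 against 10.06, 6.43 and 6.32 (-2.49 ± 0.95). Itgb2, its beta chain, read 11.23, 11.69 and 11.48 against 11.62, 9.47 and 9.73 (-1.19 ± 0.52). Mmp14, a membrane-bound matrix protease, read 7.92, 8.06 and 7.90 against 7.32, 7.35 and 7.17 (-0.68 ± 0.12), even within both groups. Itgb7, which pairs with alpha chains to guide mast cell precursors to mucosa, read 11.09, 11.43 and 11.56 against 11.43, 11.63 and 11.82.

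Among 16 interleukin 1 family and Toll-like receptors, 3 were lower and 2 higher on all 3 ACKR2-deficient arrays, beside 5.98% and 8.60% of all genes. The lower count was 6 without wild type array 1 and 8 without ACKR2-deficient array 1, beside 22.2% and 13.5%. Tlr4, the receptor for bacterial lipopolysaccharide, read 10.09, 9.67 and 9.53 in wild type cells and 9.75, 10.79 and 10.86 in ACKR2-deficient cells (0.70 ± 0.31). Tlr13 read 7.40, 8.73 and 7.83 against 8.54, 5.75 and 5.91 (-1.25 ± 0.73). Array 1 was at wild type level in both, and arrays 2 and 3 were higher for Tlr4 and lower for Tlr13.

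Cell cycle genes were set by single arrays. Of 37 measured, 34 were below 0, with 1 lower on all 3 ACKR2-deficient arrays. The list averaged 10.62, 9.72 and 8.91 in wild type cells and 9.08, 9.60 and 9.62 in ACKR2-deficient cells, so both groups overlapped fully. The median of -0.32 became 0.13 without wild type array 1 and -0.83 without wild type array 3. In the latter setting 20 genes (54.1%) were lower on all ACKR2-deficient arrays, beside 10.6% of all genes. E2f2, a transcription factor of the cycle, was the exception at 9.51, 9.84 and 9.08 against 8.76, 8.17 and 8.10 (-1.14 ± 0.25). Cholesterol synthesis genes averaged 10.77, 10.33 and 9.91 against 9.89, 10.87 and 10.55, with a median of 0.03 over 14 genes, or 0.37 without ACKR2-deficient array 1.

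Interferon-stimulated genes (median -0.04 over 22), eicosanoid enzymes (-0.01 over 13) and genes of amino acid and unfolded protein stress (-0.10 over 17) lay near the median of all genes. Usp18, an interferon-induced protease, read 9.54, 8.73 and 9.26 against 9.31, 10.14 and 10.03, and Irf7, an interferon regulator, read 8.84, 8.27 and 8.08 against 8.09, 7.38 and 7.71, so members pointed both ways. Dnajb9, a chaperone of the endoplasmic reticulum, read 11.26, 10.94 and 11.03 against 11.54, 11.55 and 11.49 (0.46 ± 0.13), and Atf4, a regulator of amino acid stress, read 10.13, 10.19 and 10.19 against 9.79, 9.77 and 9.87 (-0.36 ± 0.11). These last genes were even within both groups.

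Many zinc finger genes were on the higher side, with array 1 beside its own group. Many of them encode DNA-binding repressors, and some of these silence transposable elements. The family was taken by symbol, not by function, and was chosen after values were seen. Of 347 genes with a Zfp symbol, 109 (31.4%) were higher and 2 lower on all 3 ACKR2-deficient arrays, beside 8.60% and 5.98% of all genes. On chromosome 13, 22 of 31 were higher and none lower, and elsewhere 87 of 316 (27.5%) were higher. Genes of higher signal were more often in the higher class, 8.73% of those with a mean from 8 to 9 and 17.2% of those from 10 to 11. The counts of higher Zfp genes lay between 107 and 165 under the filter, scalings and array omissions tried, the highest without wild type array 1. Those 165 were 47.6%, beside 21.1% of all genes in that setting. The chromosome 13 counts lay between 21 and 27 of 28 to 31 genes. Zinc finger paralogs are near-identical and can share probes, so these genes are not independent measurements.

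Of all runs of 30 measured neighbours in the genome, the run from Olfr466 to Zfp273 on chromosome 13 held the most genes higher on all 3 ACKR2-deficient arrays, 21, and the next run, on chromosome 17, held 11. The run was picked by this count, so the count is a description. It held 22 genes with a Zfp or Rsl symbol, 20 of them in the class, with a median of 0.47. Taken by symbol, the 22 include Zfp85os, by its name an opposite-strand transcript, which was not in the class. The mean of the 22 was 8.40, 7.99 and 8.13 in wild type cells and 8.75, 8.78 and 8.72 in ACKR2-deficient cells. Array 1 was level with arrays 2 and 3, unlike in the macrophage and MHC class II lists.

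Zfp759 read 8.29, 7.22 and 7.60 in wild type cells and 8.97, 8.90 and 8.84 in ACKR2-deficient cells. Rsl1, a repressor of male-specific liver genes, read 9.04, 7.85 and 8.10 against 9.40, 9.20 and 9.13 (0.91). Zfp595 read 8.48, 7.72 and 7.78 against 8.87, 9.07 and 9.01 (0.99). In each, wild type array 1 was the nearest to the ACKR2-deficient values. On the 2-week arrays the mean of the 22 genes was 8.30, 8.33 and 8.87 for the wild type and 8.75, 8.82 and 9.15 for ACKR2-/-. There, however, Fcer1a read 13.82, 13.92 and 4.83 for the wild type and 5.25, 5.21 and 5.47 for ACKR2-/-, so those groups also differ in mast cell transcripts and the genotype cannot be told apart from that.

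**Figure D5:**
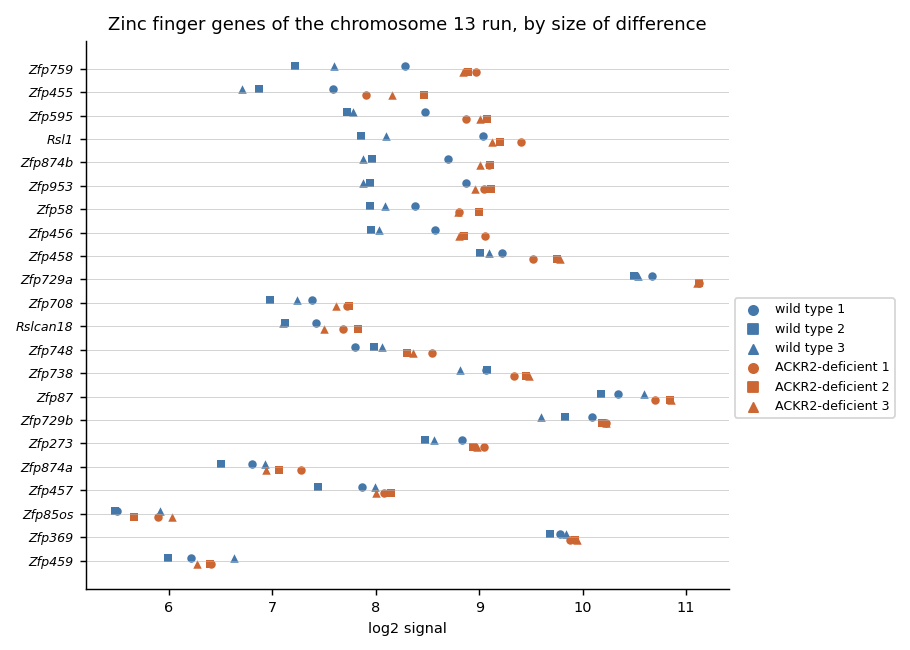
Each point is the log2 signal (x axis) on 1 array of 1 of the 22 Zfp and Rsl genes of the chromosome 13 run. Genes are ordered from the largest difference to the smallest. In 20 of the 22 genes the 3 orange ACKR2-deficient points all lie above the 3 blue wild type points, and array 1 (circle) lies among its own group.

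Of 30 replication-dependent and linker histone genes, 12 were lower and none higher on all 3 ACKR2-deficient arrays (median -0.62), beside 5.98% and 8.60% of all genes. The lower count was 19 without wild type array 3 and 21 without ACKR2-deficient array 1, beside 10.6% and 13.5% of all genes. H4c3 read 11.12, 11.50 and 11.02 in wild type cells and 10.38, 10.29 and 10.36 in ACKR2-deficient cells (-0.87 ± 0.15), and H2bc18 read 10.57, 10.63 and 10.61 against 9.86, 10.09 and 9.89 (-0.66 ± 0.12). Both were even within groups. Histone genes are near-identical copies and can share probes, and these families were also chosen after values were seen.

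Small nucleolar RNAs, which guide the modification of ribosomal RNA, were lower in 12 of 51 cases and higher in none (median -0.42). Of all genes 5.98% were lower and 8.60% higher. Without wild type array 1 the counts of small nucleolar RNAs were 34 and 2, beside 22.2% and 21.1% of all genes. Without ACKR2-deficient array 3 they were 18 and 0, beside 7.83% and 11.2%. Snord118, the U8 RNA, read 10.35, 10.92 and 10.21 in wild type cells and 9.04, 9.04 and 9.18 in ACKR2-deficient cells (-1.40), and Snord15a read 9.90, 10.89 and 10.38 against 9.30, 9.07 and 9.24 (-1.19). Of 17 ATP synthase genes, 8 were lower and none higher (median -0.12), beside 5.98% and 8.60% of all genes. After median centring 4 were lower, beside 3.43%. Atp5k read 10.04, 10.32 and 10.03 against 9.08, 9.50 and 9.41 (-0.80 ± 0.15). Among other families of abundant transcripts, cytochrome oxidase genes had 6 lower and 1 higher of 17 (median -0.19). Cytosolic ribosomal protein genes had 7 and 4 of 67 (-0.07). Mitochondrial ribosomal protein genes had 10 and 1 of 77 (-0.09), and Nduf genes of respiratory complex I had 6 and 0 of 43 (-0.06). The shares of all genes were 5.98% and 8.60%. After median centring the lower counts of these 4 families were 2, 5, 2 and 2, beside 3.43% of all genes.

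The 40 measured genes nearest to Ackr2, 20 on each side, were examined as the surroundings of the targeted locus. On all 3 ACKR2-deficient arrays 5 of them (12.5%) were lower and 3 (7.5%) higher, with a median of -0.0015, beside 5.98% and 8.60% of all genes. The counts were 10 (25%) and 5 (12.5%) without wild type array 1, beside 22.2% and 21.1% of all genes. They were 7 (17.5%) and 10 (25%) without ACKR2-deficient array 1, beside 13.5% and 16.9%. Without wild type array 3 they were 8 (20%) and 4 (10%), beside 10.6% and 15.8%. After quantile normalization they were 2 (5%) and 3 (7.5%), beside 6.51% and 11.1%. Rpl14, a ribosomal protein, read 10.13, 10.30 and 10.10 in wild type cells and 9.51, 9.83 and 9.84 in ACKR2-deficient cells (-0.45 ± 0.14). Ano10, a calcium-dependent membrane scramblase family member, read 8.30, 8.40 and 7.74 against 7.67, 6.27 and 6.27 (-1.40 ± 0.39). Abhd5, a co-activator of fat breakdown, differed by -0.39 ± 0.12, and Tmem42 by 0.52 ± 0.16. The counts were small and the differences pointed both ways.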

How the data were processed

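RNA of 6 bone marrow derived mast cell samples was read on single-colour Affymetrix arrays from 250 ng total RNA. The authors deposited log2 values, which Partek 6.5 computed by RMA according to the submitters' processing notes. Build and annotation: not given in the sources used here. Scanner files were not used. RMA aligns array distributions, so a shift of most genes at once would not show. Of 35399 probe sets, 21789 had 1 gene symbol in the platform annotation, 1621 several and 11989 none. The first were reduced to 19938 genes by the highest mean over the 6 arrays (999 genes had several probe sets), of which 19856 matched the RefSeq GRCm38.p6 table used for position.

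The 6 arrays were fitted alone with limma 3.58.1 in R 4.3.3 (lmFit, eBayes), with Benjamini-Hochberg adjustment over all genes and a threshold of 0.05. The scripts were tested on simulated data. An exact permutation test of 3 against 3 cannot give a p under 0.1. The number of arrays limits the precision. Same-numbered arrays deviated from their group means with correlations of -0.309, -0.187 and -0.18. Deviations within a group of 3 sum to 0, so these values cannot tell whether same-numbered arrays were prepared together. The labels do not say, and pairing is not known.

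The arrays and lists were chosen with earlier results of these data known. Gene families, the chromosome 13 run and the counts for wild type array 3 and for array 1 beyond the other end were chosen after values were seen. Genes were named by rule: Ackr2, Kit and Fcer1a; the widest gaps of each class (10 lower and 10 higher, then 8 and 6); the 5 lowest p; up to 5 genes per list; and classed neighbours of Ackr2. Clone names, small RNAs and olfactory genes were left out of ranks. Other list and family members named were chosen after their values were seen.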

Additional observations from a re-analysis of the deposited data

How the results depend on the processing

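The limma count of 0 genes at an adjusted p of 0.05 (2098 at an unadjusted p under 0.05) stayed 0 with other probe set choices, the filter on dim genes, both scalings, trend and robust moderation, all 12 arrays in the fit and the replicate block. The block by replicate number had a lowest adjusted p of 0.109. Array weights gave 9502 calls, but their estimate did not converge and put a weight of 37.1 on wild type array 2. Leaving out 1 array at a time gave 0 to 507 calls.

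Genes lower on all 3 ACKR2-deficient arrays numbered 1192. They were 683 after median centring, 6 with a gap of at least 1, and 1555 to 4418 with 1 array left out. Higher genes numbered 1714, and were 2577, 1 and 1995 to 4206 in the same order. With array 1 inside the wild type range, 1157 lower genes became 734, 138 and 825 to 2003, and 1383 higher genes became 2794, 21 and 1204 to 2317. The last class cannot be formed without ACKR2-deficient array 1. Why these counts moved was not tested beyond the fewer arrays and the stricter gap themselves.

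The Ackr2 difference reversed to -0.058 without wild type array 1 and to -0.046 with array weights, and single arrays left out gave up to 0.18; the cause was not tested. Among list medians, those that moved by more than the spread of the list mean between replicates were those of mast cell identity genes (0.13 after centring and 0.12 without ACKR2-deficient array 1), IgE receptor signalling (0.21 after centring), erythroid markers (-0.14 without wild type array 1) and amino acid stress genes (0.036 and -0.0071 without those arrays). Within that spread, medians also changed sign: cell cycle genes had 0.13 and cholesterol genes -0.18 at the extreme (without wild type array 1 and without ACKR2-deficient array 2), B cell markers 0.04 without wild type array 3, and erythroid, stromal, eicosanoid and interferon lists had both signs.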
